A study of Mus musculus with 44 samples.

Results

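The p53 pathway was followed in single two-cell mouse embryos through 10 genes: Cdkn1a, Trp53, Mdm2, Mdm4, Trp53inp1, Ccng1, Gadd45a, Bax, Bbc3 and Pmaip1, of 35269 transcripts quantified. Cdkn1a was chosen by its level, because it stood higher in embryos without Dppa2 and Dppa4 than in controls, and the other 9 genes were added as its pathway. All 10 were found in the table under these names. p53, the product of Trp53, is a transcription factor that is held at a low level by the ubiquitin ligase MDM2 and by its relative MDM4. Stress such as DNA damage releases it, and it then raises transcription of genes that stop the cell cycle, among them Cdkn1a, or that start apoptosis, among them Bax, Bbc3 and Pmaip1. Mdm2 is itself a target, which closes a negative feedback loop.

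RNA from 44 single embryos of natural matings on a C57Bl/6 background was sequenced at the two-cell stage, when the mouse embryo switches from maternal RNA to its own transcription. Embryos of control females and wild-type males are Dppa2/4+/+ and are called WT (n = 14). All other mothers carried conditional Dppa2/4 alleles on both chromosomes and Zp3-Cre, which is active in growing oocytes and removes the stretch from Dppa4 to Dppa2, so that their eggs held no maternal Dppa2/4 (cKO females). Their embryos with wild-type males are Dppa2/4+/- and are called HET1 (n = 15). Their embryos with Dppa2/4+/- males are either Dppa2/4+/- (HET2, n = 5) or Dppa2/4-/- (HOM, n = 10), and the authors told these apart by the Dppa2 and Dppa4 transcripts of each embryo. Each of the 3 crosses gave 2 litters, so the 44 embryos came from 6 litters: 10 and 4 WT, 7 and 8 HET1, and 4 and 1 HET2 together with 3 and 7 HOM in shared litters. Cross and litter cannot be told apart beyond these pairs of litters, and p-values measure the spread between embryos, several of which share a mother.

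Values are log2 RPM, the reads of a gene scaled to a common total per embryo, and values below the highest level given to a gene without reads (1.86) were set to that floor in every embryo. A value is a share of the reads of its embryo, so more RNA of a gene and less RNA of the others cannot be told apart. Total reads ranged from 637704 to 3163026 in WT (median 1770009.5), from 247667 to 1830316 in HET1 (median 528166), from 698469 to 2136068 in HET2 (median 1108889) and from 418558 to 3048642 in HOM (median 803369). Dppa2 had 184 to 2144 reads in WT, 11 to 489 in HET1, 19 to 814 in HET2 and 0 to 7 in HOM embryos, and 3 of 10 HOM embryos held at least 1 read. Two-cell markers were detected in every group, with a median summed level of 467.5 RPM in WT, 973.1 in HET1, 709.7 in HET2 and 718.3 in HOM over 9 genes. Oviduct epithelium markers reached a summed 1536.6 RPM in WT and at most 8.2 RPM in the other groups, almost all of it Ovgp1, the oviduct glycoprotein: its reads ran from 0 to 84 in the first WT litter and from 41 to 1597 in the second. The 14 cumulus and granulosa markers summed to medians of 47.3 RPM in WT, 49.9 in HET1, 32.9 in HET2 and 61.8 in HOM, at most 115.7: Amhr2 had reads in all but 1 HET1 embryo (median 51.5 reads in WT) and Kitl in 10 of 14 WT, 12 of 15 HET1, 5 of 5 HET2 and 7 of 10 HOM embryos, while Fshr had none in any embryo. Blood markers summed to at most 6.3 RPM.

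Cdkn1a (chr17:29090976-29100727, + strand, GRCm38) encodes p21, the inhibitor of cyclin-dependent kinases by which p53 arrests the cycle. It ranged from 1.86 to 6.01 log2 RPM in the 14 WT embryos, with a median of 4.28, which was 1 to 58 reads. In the 10 HOM embryos it ranged from 4.60 to 7.14 with a median of 6.14, or 26 to 110 reads. All 10 HOM embryos lay above the WT median and 5 of them above the highest WT embryo, and the ranges overlapped. In the 15 HET1 embryos Cdkn1a ran from 3.59 to 6.79 with a median of 6.06, and 8 lay above the highest WT embryo. The HET2 embryos held 4.07, 3.55, 4.91, 4.81 and 3.67, all within the WT range. HET1 and HET2 embryos are both Dppa2/4+/-, but they differ in sire, litter and depth. The 5 HET2 embryos, 4 of them from 1 litter, had median total reads of 1108889, beside 528166 in HET1.

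**Figure D1:**
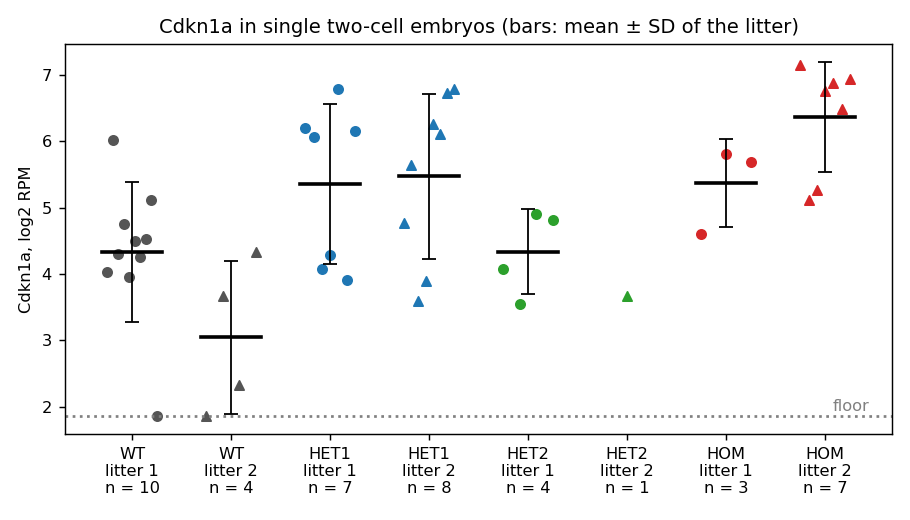
Cdkn1a level (log2 RPM) of each embryo by group and litter, with circles for first and triangles for second litters, horizontal lines at the litter mean, bars of 1 SD and a dotted line at the floor of 1.86. HOM embryos lie between 4.60 and 7.14 and HET2 embryos between 3.55 and 4.91, and 2 WT embryos sit at the floor.

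The fitted difference between HOM and WT embryos was 2.10 ± 0.44 (SE) on the log2 scale, a 4.30-fold level. It is given as a description, since this contrast chose the gene. Also as descriptions, because they share the WT or HOM embryos of that choice, Cdkn1a stood 1.45 ± 0.40 higher in HET1 than in WT (2.74-fold), 0.24 ± 0.56 higher in HET2 than in WT, and 1.59 ± 0.48 higher in HOM than in HET2 embryos of the same litters (3.01-fold). HET1 and HET2 did not enter the choice of the gene. Between them Cdkn1a differed by 1.21 ± 0.55 (2.31-fold, 95% confidence interval 0.10 to 2.32), which did not pass the test over all genes (limma, Benjamini-Hochberg adjusted p = 1).

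Depth moved with Cdkn1a. Across the 44 embryos its level was lower where total reads were higher (Pearson r = -0.56, Spearman rho = -0.57). These values include the HOM and WT embryos of the choice, so the test was made on deviations from the mean of each group's litter, with embryos shuffled only within it (r = -0.45, rho = -0.49, permutation p = 0.006 and 0.0025, adjusted 0.029 and 0.023 over 19 relations, r = -0.34 without the 2 embryos farthest in depth). With log2 total reads as a covariate the difference from WT was 1.68 ± 0.42 in HOM and 0.71 ± 0.43 in HET1, and the HET1 to HET2 difference was 0.65 ± 0.53. The 7 WT embryos with more than 10 Ovgp1 reads held the lowest Cdkn1a values of the group. In log2 RPM Cdkn1a was 1.86 in j, 1.86 in k, 2.33 in m and 3.67 in l, with 84, 1597, 322 and 630 Ovgp1 reads. It was 4.03 in a, 4.33 in n and 4.75 in d, with 48, 41 and 13 Ovgp1 reads. The other 7 WT embryos held 3.95 to 6.01. The relation of the 2 genes was not tested. Without the 7 WT embryos with more than 10 Ovgp1 reads, a setting chosen after seeing the data, Cdkn1a stood 1.40 ± 0.47 higher in HOM and 0.75 ± 0.44 higher in HET1 than in WT, and 0.46 lower in HET2 (difference -0.46 ± 0.56). Leaving out whole litters gave 1.40 (without the second HOM litter) to 3.02 (without the first WT litter) for HOM, and 1.09 (without the second WT litter) to 2.37 (without the first WT litter) for HET1. Cdkn1a stood 1.16 higher in HET2 than in WT without the first WT litter, and HOM stood above HET2 by 1.03 without their second litter and by 2.69 without their first.

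**Figure D2:**
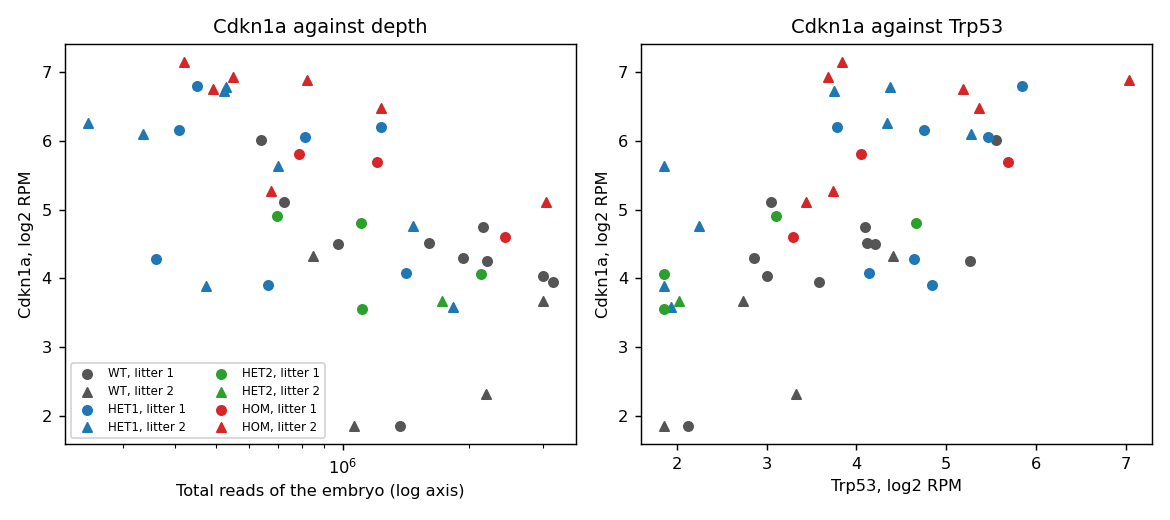
Cdkn1a (log2 RPM) of the 44 embryos against total reads on a log axis, left, and against Trp53 (log2 RPM), right, coloured by group, with circles for first and triangles for second litters. Pearson r is -0.56 with log2 total reads and 0.61 with Trp53.

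The promoter of Cdkn1a is shown because p53 is known to act on this gene through it; a match of letters is a description, not a bound site. RefSeq windows (build GRCm38.p6) of 250 bases before to 50 bases after a start site were matched for 8 of the 10 genes, in 12 windows, and searched on both strands for the p53 half-site, the 10-letter consensus of which p53 binds pairs. Trp53inp1 and Pmaip1 had no match here. The half-site was found in 8.4% of the 32851 windows of all genes, and in 6 of the 12 windows of these genes. The 250 bases before the first Cdkn1a start site, at chr17:29090729-29090978 on the + strand, held 2 half-sites, which start 73 and 51 bases before the start site (capitals). The other lines give the 50 bases around the single half-site of Trp53 (chr11:69580264-69580313, + strand), Mdm2 (chr10:117710915-117710964, - strand), Ccng1 (chr11:40755442-40755491, - strand), Gadd45a (chr6:67037418-67037467, - strand) and Bax (chr7:45467070-45467119, - strand), each 5′ to 3′ on the strand of the gene with the half-site in capitals.
Cdkn1a: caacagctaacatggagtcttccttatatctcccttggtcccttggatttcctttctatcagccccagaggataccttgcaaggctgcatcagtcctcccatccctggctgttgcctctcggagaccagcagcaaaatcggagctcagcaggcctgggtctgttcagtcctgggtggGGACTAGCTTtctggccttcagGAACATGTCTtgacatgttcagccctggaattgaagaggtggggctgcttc
Trp53: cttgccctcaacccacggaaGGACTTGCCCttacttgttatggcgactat
Mdm2: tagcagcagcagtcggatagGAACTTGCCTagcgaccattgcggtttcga
Ccng1: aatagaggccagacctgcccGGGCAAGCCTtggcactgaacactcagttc
Gadd45a: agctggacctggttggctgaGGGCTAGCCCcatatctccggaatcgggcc
Bax: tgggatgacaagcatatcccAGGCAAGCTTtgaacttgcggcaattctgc
The second Cdkn1a window, both Mdm4 windows and the 3 Bbc3 windows held none, which says only that these letters are not in these windows.

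Trp53 (chr11:69580359-69591873, + strand), the gene of p53 itself, was a low transcript. It ranged from 1.86 to 5.56 log2 RPM in WT (median 3.46), from 1.86 to 5.85 in HET1 (median 4.34) and from 3.30 to 7.04 in HOM (median 3.94), and was 1.86, 1.86, 3.10, 4.67 and 2.02 in HET2. The groups overlapped, 2 HOM embryos and 1 HET1 embryo lay above every WT embryo, and 3 embryos had no read. Within the shared litters Trp53 stood 1.85 ± 0.77 higher in HOM than in HET2 (3.61-fold, 95% confidence interval 0.21 to 3.49, limma adjusted p = 0.871 over 15104 genes), which did not pass the test. Over the alternatives this difference lay between 1.14, with every value below 3 set to 3, and 2.59, without the first HET2 and HOM litter (1 HET2 embryo left). Against WT Trp53 differed by 0.35 ± 0.46 in HET1 (limma adjusted p = 0.716) and by -0.89 ± 0.64 in HET2 (limma adjusted p = 0.772). The HET1 difference was -0.38 without the first HET1 litter and 1.19 without the second. The HET2 difference was -1.57 without the first HET2 and HOM litter and -0.38 without the first WT litter. The HOM to WT difference, from the contrast that chose Cdkn1a, was 0.95 ± 0.51.

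Trp53 was the member whose level went most closely with Cdkn1a from embryo to embryo (Pearson r = 0.61, Spearman rho = 0.59, n = 44, as a description). Tested on the deviations within group and litter it was r = 0.61 (rho 0.60, permutation p = 3e-05 and 7e-05, adjusted 0.00057 and 0.0013 over 19 relations), 0.56 without the 2 embryos farthest in Cdkn1a, and 0.54 once depth was also removed. Trp53 itself stood at r = -0.37 with depth within litters (rho -0.35, adjusted permutation p = 0.086 and 0.12). Bax followed at r = 0.41 within litters (rho 0.34, adjusted permutation p = 0.044 and 0.12), 0.36 without the 2 outermost embryos and 0.35 with depth removed, beside 0.49 over all embryos. Bbc3 was at r = 0.39 over all embryos, but at 0.20 within litters (rho 0.23, adjusted permutation p = 0.48 and 0.38) and at 0.09 with depth removed. Trp53inp1 went the other way, at r = -0.44 within litters (rho -0.46, adjusted permutation p = 0.029 and 0.023), -0.37 without the 2 outermost embryos and -0.38 with depth removed, beside -0.31 over all embryos. Over the embryos of a single group Trp53inp1 stood at -0.10 in WT, -0.65 in HET1 and -0.85 in HOM. The other 5 members lay between -0.20 (Gadd45a) and 0.01 (Mdm2) within litters, none with an adjusted permutation p under 0.05. Over the embryos of WT, HET1 or HOM alone these members ran from -0.83 (Mdm4 in HOM) to 0.39 (Mdm2 in HOM). How many of all genes go with Cdkn1a as closely was not counted, so these values do not set the members apart from other genes. The 5 genes most like Cdkn1a, none of them in the lists used here, stood at 0.70 to 0.78 within litters.

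The inhibitors of p53 were the most abundant members together with Trp53inp1. Per kilobase of exon, WT embryos held 194 ± 64 (SD, n = 14) RPM of Mdm4, 42.6 ± 20.0 of Trp53inp1 and 28.6 ± 17.0 of Mdm2, against 10.2 ± 7.83 of Pmaip1, 8.44 ± 6.95 of Bax, 5.69 ± 4.42 of Cdkn1a, 5.13 ± 4.67 of Gadd45a, 3.82 ± 3.24 of Trp53, 3.55 ± 4.90 of Ccng1 and 0.458 ± 0.572 of Bbc3. Mdm4 stood apart from the next gene by more than the SDs of both, and every other neighbour in this order overlapped. On the same scale Cdkn1a was number 6 of the 10 in WT and in HET2 (5.60 ± 2.43, n = 5), and number 4 in HET1 (15.7 ± 10.3, n = 15) and in HOM (22.0 ± 11.9, n = 10), next to Mdm2 (27.1 ± 8.27 in HOM).

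Mdm2 (chr10:117688875-117710758, - strand) ranged from 5.95 to 8.53 log2 RPM in WT (median 6.85), from 6.17 to 7.38 in HET1 (6.86) and from 6.35 to 7.61 in HOM (7.13), and was 5.85, 6.99, 7.74, 6.69 and 6.86 in HET2. The ranges overlapped, and the 2 highest embryos were both of the second WT litter. The difference from WT was -0.14 ± 0.22 in HET1 (95% confidence interval -0.58 to 0.30) and -0.17 ± 0.31 in HET2 (-0.78 to 0.45), and HOM stood 0.05 ± 0.24 from WT. Without the first WT litter these differences were -0.88, -0.91 and -0.70, and without the second 0.16, 0.13 and 0.34. Mdm4 (chr1:132959484-133030561, - strand), the highest of the 10, ranged from 10.90 to 12.26 in WT (11.43), from 10.93 to 11.87 in HET1 (11.28) and from 10.48 to 12.43 in HOM (11.37), and was 11.96, 11.95, 11.58, 11.20 and 11.48 in HET2. Its difference from WT was -0.09 ± 0.17 in HET1 (-0.43 to 0.24), 0.21 ± 0.24 in HET2 (-0.26 to 0.69) and -0.03 ± 0.19 in HOM. The HOM difference was -0.37 without the first WT litter and 0.65 without the second HET2 and HOM litter. Of the alternatives run, only quantile normalization let Mdm4 pass the test in HET1 against WT, at -0.45 (adjusted p = 0.0352).

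**Figure D3:**
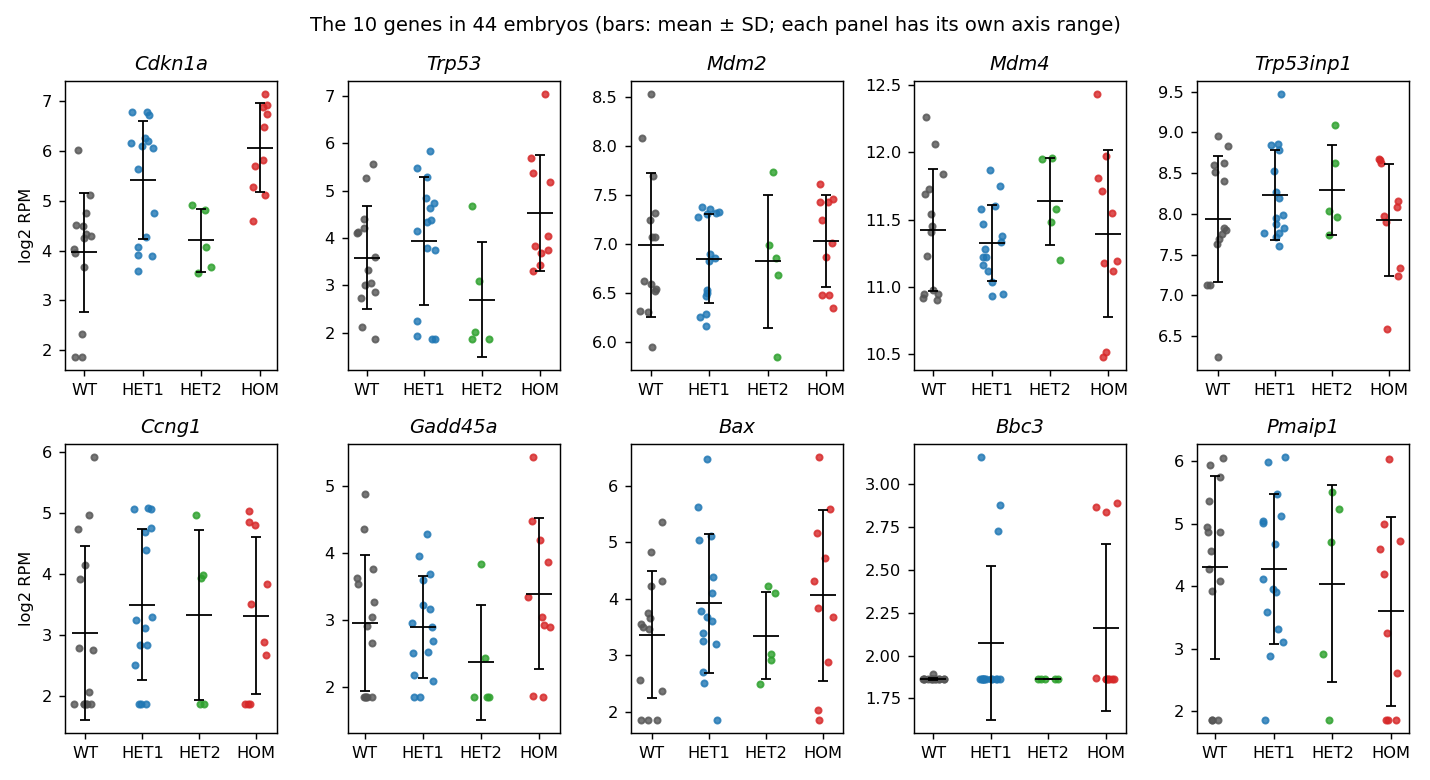
Level (log2 RPM) of the 10 genes in the 44 embryos by group, with the mean and bars of 1 SD, each panel on its own axis. Cdkn1a means are 3.96 in WT, 5.41 in HET1, 4.20 in HET2 and 6.07 in HOM, while the Mdm4 means lie between 11.33 and 11.63.

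The other targets that act on growth were low. Ccng1 (chr11:40748552-40755311, - strand), which encodes cyclin G1, ranged from 1.86 to 5.92 in WT (median 2.41), from 1.86 to 5.08 in HET1 (3.25) and from 1.86 to 5.04 in HOM (3.20), and was 3.99, 3.94, 1.86, 1.86 and 4.97 in HET2, with 14 of the 44 embryos at the floor. Gadd45a (chr6:67035096-67037457, - strand), a stress gene of growth arrest and DNA repair, ranged from 1.86 to 4.87 in WT (2.98), from 1.86 to 4.28 in HET1 (2.89) and from 1.86 to 5.43 in HOM (3.20), and was 1.86, 1.86, 3.84, 2.44 and 1.86 in HET2. Embryos of every group sat at the floor for both genes and the ranges overlapped throughout. Ccng1 differed from WT by 0.46 ± 0.49 in HET1 and 0.29 ± 0.69 in HET2, and Gadd45a by -0.06 ± 0.36 and -0.58 ± 0.50. Without the first WT litter the Ccng1 differences were -0.12 and -0.29, and without the first HET2 and HOM litter the HET2 difference was 1.94. Gadd45a stood 1.10 ± 0.68 higher in HOM than in HET2 littermates (adjusted p = 0.871).

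Of the apoptosis genes, Bax (chr7:45461697-45466898, - strand) forms pores in the mitochondrial membrane. It ranged from 1.86 to 5.36 in WT (median 3.52), from 1.86 to 6.47 in HET1 (3.68) and from 1.86 to 6.51 in HOM (4.08), and was 2.49, 3.02, 4.22, 4.11 and 2.91 in HET2. In HET1 and in HOM 2 embryos each lay above every WT embryo, and the rest overlapped. The difference from WT was 0.55 ± 0.46 in HET1 (adjusted p = 0.547), -0.02 ± 0.64 in HET2 and 0.69 ± 0.51 in HOM. Without the first HET1 litter the HET1 difference was -0.11, and without the second it was 1.30. The HOM difference was -0.63 without the second HET2 and HOM litter and 1.28 without the first WT litter.

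Bbc3 (chr7:16308393-16318205, + strand), which encodes PUMA, was close to the limit of detection. It had at most 9 reads in any embryo and none in 23 of 44. At least 3 reads were found in 4 of 14 WT, 3 of 15 HET1, 0 of 5 HET2 and 5 of 10 HOM embryos, and counts this low limit any comparison. On the floored scale Bbc3 differed from WT by 0.21 ± 0.13 in HET1 (adjusted p = 0.386), by -0.00 ± 0.18 in HET2 (95% confidence interval -0.36 to 0.36) and by 0.30 ± 0.14 in HOM, the contrast of the choice. Pmaip1 (chr18:66458604-66465550, + strand), which encodes NOXA, ranged from 1.86 to 6.05 in WT (4.71), from 1.86 to 6.07 in HET1 (4.11) and from 1.86 to 6.03 in HOM (3.72), and was 2.91, 5.24, 1.86, 5.50 and 4.70 in HET2. Every group spanned nearly the whole range of the gene. Its difference from WT was -0.03 ± 0.51 in HET1, -0.26 ± 0.72 in HET2 and -0.70 ± 0.57 in HOM. The direction turned in each when a litter was left out: to 0.45 in HET1 without the first HET1 litter, and to 0.41 in HET2 without the first and 0.30 in HOM without the second HET2 and HOM litter.

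Trp53inp1 (chr4:11156431-11174379, + strand), a nuclear protein that enhances p53 activity, was high in every embryo. It ranged from 6.24 to 8.96 in WT (median 7.81), from 7.60 to 9.47 in HET1 (7.99) and from 6.59 to 8.67 in HOM (8.02), and was 9.09, 8.63, 8.03, 7.74 and 7.96 in HET2. The groups overlapped over most of their range. The difference from WT was 0.29 ± 0.24 in HET1 (95% confidence interval -0.19 to 0.78), 0.35 ± 0.34 in HET2 (-0.33 to 1.04) and -0.01 ± 0.27 in HOM.

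In HET1 against WT none of the 9 members other than Cdkn1a passed the test (limma, adjusted p under 0.05), beside 4.66% of all 16294 genes tested. At an unadjusted p under 0.05 (18.6% of all genes) and with limma voom on the recovered reads (15.4%) the count was also 0. In HET2 against WT it was 0 of 9, beside 0.0307% of all genes, and again 0 unadjusted (8.51%) and 0 by voom (0.0487%). In HOM against HET2 within litters it was 0 of 9, beside 0.0132% of 15104 genes, with 1 unadjusted (Trp53, beside 4.61%) and 0 by voom (0.0183%). In HET1 against HET2 it was 0 of 10, beside 0.0123%, with 1 unadjusted (Cdkn1a, beside 4.21%) and 0 by voom (0% of all genes). In HOM against WT, the contrast of the choice, 0 of 10 passed, beside 0.0184%, with 2 unadjusted (Cdkn1a and Bbc3, beside 14.6%) and 1 by voom (Cdkn1a, beside 0.0548%), and nothing is read from these. The comparisons with WT share their control embryos. The median difference over the 10 members was 0.25 in HET1, -0.01 in HET2 and 0.29 in HOM against WT, and over all genes 0.05, -0.00 and 0.09.

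**Figure D4:**
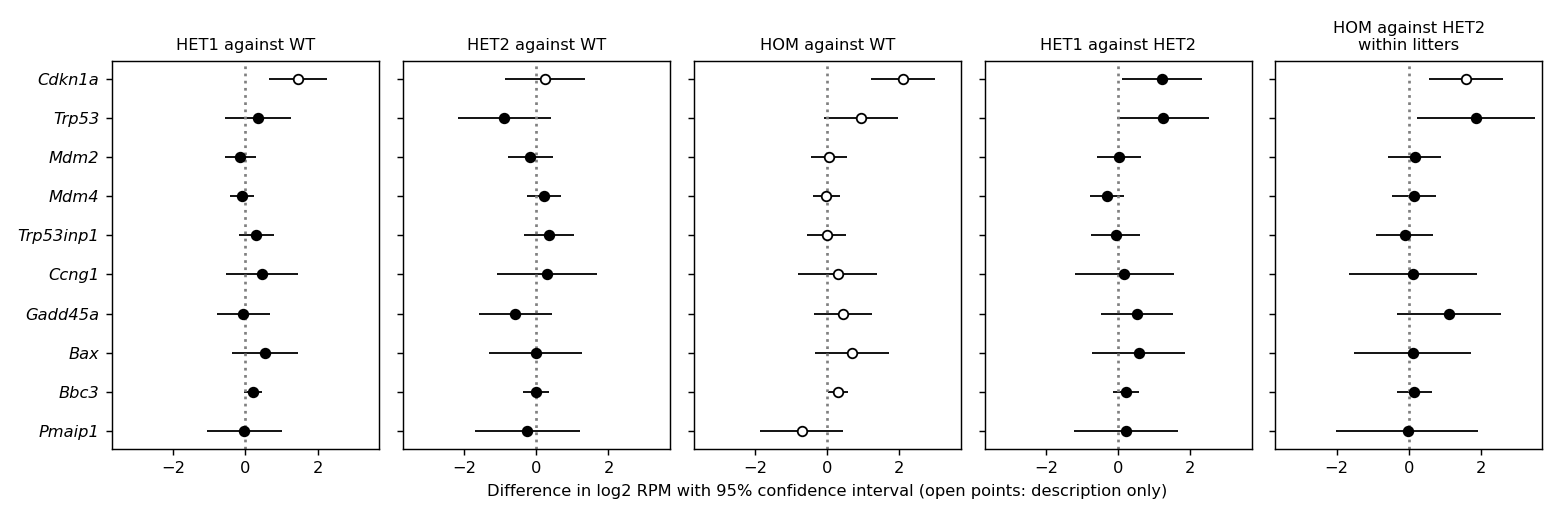
Difference in log2 RPM of each of the 10 genes in 5 comparisons of groups, with 95% confidence intervals from limma; open points are descriptions, since those embryos chose Cdkn1a. Cdkn1a lies at 1.45 in HET1 and 2.10 in HOM against WT, and the intervals of the filled points for Mdm2 and Mdm4 all include 0.

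Differences between the 2 litters of a group were measured in the same way. Mdm4 stood lower in the second than in the first HOM litter (difference -0.96 ± 0.26, 1.95-fold, adjusted p = 0.0454), the only one of 10 members to pass, beside 1.68% of all genes. The 3 embryos of the first litter held 12.43, 11.81 and 11.97, above the highest of the 7 of the second (10.48 to 11.71, median 11.18). The call was lost without any one of the 3 first-litter embryos (-0.78, -1.09 and -1.01, limma adjusted p = 0.202, 0.0708 and 0.0836). With depth as a covariate the difference was -0.83 (limma adjusted p = 0.0685). Under quantile normalization, a separate setting, it was -0.29 (limma adjusted p = 0.548). Mdm4 went with depth, at r = 0.42 over all embryos and at r = 0.46 within group and litter (rho 0.40, adjusted permutation p = 0.029 and 0.07, r = 0.44 without the 2 embryos farthest in depth). Two-cell markers had a median difference of -2.15 over 9 genes between the same litters, of which Tcstv1 (-2.92 ± 0.74) and Usp17lc (-3.14 ± 0.79) passed the test, and their part in the Mdm4 value was not tested. Bax, by contrast, was 2.04, 1.86 and 4.32 in the first HOM litter and 2.89 to 6.51 (median 4.73) in the second, a difference of 1.89 ± 0.76 (adjusted p = 0.182). By unadjusted p 2 members passed there (Mdm4 and Bax, beside 16.6%), and by voom 1 (Mdm4, beside 1.15%).

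In HET1, 0 of 10 members passed between litters, beside 16.8% of all genes, with 3 unadjusted (Trp53, Mdm2 and Bax, beside 29.1%) and 0 by voom (12.3%). Trp53 was 3.78 to 5.85 (median 4.75) in the first litter and 1.86 to 5.28 (median 3.00) in the second, a difference of -1.58 ± 0.60 (adjusted p = 0.0655). Bax went from a median of 4.39 to 3.33 (difference -1.41 ± 0.57, adjusted p = 0.0851), and Cdkn1a differed by 0.11 ± 0.53 (95% confidence interval -0.96 to 1.19). In WT, 0 of 10 passed, beside 2.5% of all genes, with 3 unadjusted (Cdkn1a, Mdm2 and Mdm4, beside 14.8%) and 2 by voom (Mdm2 and Mdm4, beside 5.5%). Mdm2 was 5.95 to 7.70 (median 6.56) in the first WT litter and 8.53, 8.08, 7.25 and 7.07 in the second, a difference of 1.04 ± 0.30 (adjusted p = 0.0547) in the litter with the most Ovgp1 reads. Cdkn1a went the other way there (-1.28 ± 0.61, adjusted p = 0.306), from 1.86 to 6.01 (median 4.40) in the first litter to 1.86, 3.67, 2.33 and 4.33 in the second. The part of the oviduct reads in these values was not tested.

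**Figure D5:**
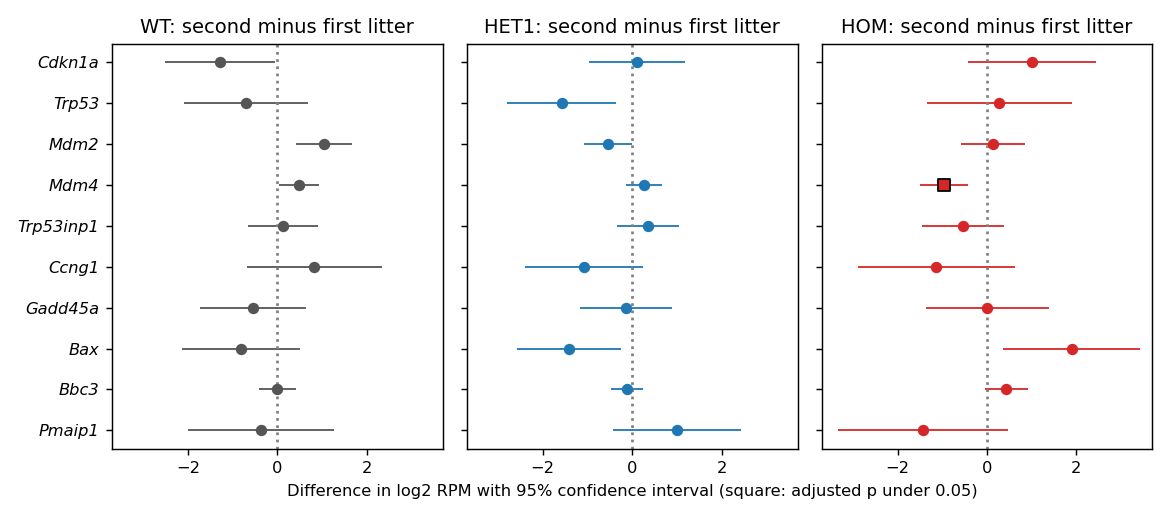
Difference in log2 RPM between the second and the first litter of WT, HET1 and HOM embryos for the 10 genes, with 95% confidence intervals from limma; the square marks the call, Mdm4 in HOM at -0.96. Bax lies at -1.41 in HET1 and 1.89 in HOM.

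Other genes of the pathway were taken from lists chosen with earlier results of these data known. In HET1 against WT, 1 of 22 regulators of p53 tested passed, Rpl5, a ribosomal protein that binds MDM2 (-1.63 ± 0.32, adjusted p = 0.00319), as did 1 of 28 other p53 targets, Ei24 (-1.03 ± 0.25, adjusted p = 0.0118). One of 6 other inhibitors of cyclin-dependent kinases was higher, Cdkn2d (1.43 ± 0.42, adjusted p = 0.0372), and 1 of 15 genes of the BCL-2 family and apoptosome was lower, Xiap, an inhibitor of caspases (-1.0 ± 0.23, adjusted p = 0.00933). None of the 12 cyclins, kinases and PCNA that p21 binds and neither of Gadd45b and Gadd45g passed. The 4 calls among 84 genes stand beside 4.66% of all genes. The medians of these lists were 0.03, 0.09, 0.25, 0.24, 0.09 and 0.52, beside 0.05 over all genes. All 4 calls were lost with the litter as a random effect and with depth as a covariate, where 0 of all genes were called, and also without the WT embryos rich in Ovgp1, without the second HET1 litter and without the first WT litter. Under the random litter effect their differences stood at -1.63 (Rpl5), -1.01 (Ei24), 1.29 (Cdkn2d) and -0.99 (Xiap), and without the WT embryos rich in Ovgp1 -1.28, -0.92, 1.57 and -0.95, in the same order. With depth as a covariate they were -1.23, -0.94, 0.79 and -0.97, and without the second HET1 litter -0.90, -0.13, 1.06 and -0.85. Without the first WT litter they were -1.81, -1.07, 0.46 and -0.96. Voom called 12 of 85, beside 15.4% of all genes. Markers moved in HET1 against WT too. Of 9 two-cell markers Tcstv1 (2.34 ± 0.67) and Sp110 (0.75 ± 0.22) passed by limma, with a median of 0.81 over the 9. Of 3 oviduct markers tested Ovgp1 was lower (-2.18 ± 0.59). The part of these markers in the pathway values was not tested. On the deposited values 7 regulators, 6 targets, 3 inhibitors, 2 genes that p21 binds, 4 of the BCL-2 family and 1 Gadd45 gene passed, beside 24.7% of all genes. Of the 84 genes of these 6 lists tested, limma called 0 in HET2 against WT (8 at an unadjusted p under 0.05, beside 8.51% of all genes), 0 in HOM against WT (21, beside 14.6%), 0 in HET1 against HET2 (4, beside 4.21%) and, of 83, 0 in HOM against HET2 within litters (3, beside 4.61%), and voom called 0 in each.

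Between the HET1 litters 7 of the 22 regulators passed, 3 higher and 4 lower in the second, led by the damage kinases Atr (1.97 ± 0.63), Atm (-1.51 ± 0.43) and Chek2 (-1.38 ± 0.45). Of the other targets 3 of 28 were higher and 3 lower, led by Ei24 (-1.68 ± 0.24), the apoptosome gene Apaf1 (-1.33 ± 0.33) and Psrc1 (0.92 ± 0.31). Of the genes that p21 binds 3 of 12 were lower: Cdk4 (-1.90 ± 0.53), Ccnd3 (-1.67 ± 0.59) and Ccne1 (-1.02 ± 0.36). Bik, an initiator of apoptosis, was higher (1.12 ± 0.39). These shares stand beside 16.8% of all genes. Without embryos under 500000 reads the counts were 1, 2 and 0, beside 7.05% of all genes, and with depth as a covariate 20 of the 84 genes passed in place of 17, beside 18.2%. Voom called 8 of 85, beside 12.3%, and 28 of 84 had an unadjusted p under 0.05, beside 29.1%. In the same litter 7 of 9 two-cell markers were higher, and Dppa2 (-1.56 ± 0.29), Dppa4 (-1.79 ± 0.31) and, of the 4 cumulus and granulosa markers tested, Amhr2 (-1.55 ± 0.54) were lower, and their part in these values was not tested. In WT litters Perp was higher (0.46 ± 0.13, adjusted p = 0.0464) and the DNA repair gene Ddb2 lower (-2.09 ± 0.54, adjusted p = 0.0214) among the 28 other targets, 2 of the 84 genes beside 2.5% of all genes, and neither passed without WT embryo m or with every value below 3 set to 3. Voom called 7 of 85, beside 5.5%, and 16 of 84 had an unadjusted p under 0.05, beside 14.8%. Of 3 oviduct markers tested, Ovgp1 (5.21 ± 0.54) and Wt1 (1.37 ± 0.30) were higher in the same second WT litter, and their part in these values was not tested. In the HOM litters 0 of the 84 passed by limma, beside 1.68% of all genes (14 unadjusted, beside 16.6%, and 0 by voom).

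The genes most like Cdkn1a over the 44 embryos, of 16284 ranked by Pearson correlation, were Rnpep (0.81), Tubb5 (0.80), Cdk16 (0.80), Lmna (0.80) and Qsox1 (0.79). Within litters the 5 stood between 0.70 and 0.78. Their own correlation with log2 depth lay between -0.60 and -0.39, beside -0.56 for Cdkn1a, and all share the libraries and their depth. Group means in WT, HET1, HET2 and HOM were 4.41, 5.53, 4.85 and 5.93 for Rnpep and 5.17, 5.98, 5.46 and 7.07 for Tubb5. Since these genes were ranked by likeness to Cdkn1a over the same embryos, a higher HOM mean follows from the choice.

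Cdkn1a, Gadd45a and Bax share exons with another annotated gene, and counting took no account of strand, so reads of the pair cannot be told apart there. Cdkn1a shares 273 bases with AC167363.2 on the opposite strand, which had at most 7 reads in any embryo. Gadd45a shares 337 bases with E230016M11Rik on the opposite strand (at most 32 reads) and Bax 192 bases with Gm45808 on the same strand (at most 47 reads).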

How the data were processed

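Single-embryo libraries (Smart-seq2, oligo-dT) of 44 embryos had been sequenced in 75 bp pairs. The authors trimmed reads with Trim Galore 0.6.5 and cutadapt 2.3, mapped them to GRCm38 with HISAT2 2.1.0, required a MAPQ of 20 or more, and counted reads of both strands over 35269 mRNA probes. Values were deposited as log2 RPM by the authors, in which a gene without reads holds the value of 0.9 read, so this value depends on depth. Reads were recovered from these steps (99.9992% of values above 0 within 0.05 read of a whole number), all 44 columns were used, and no pair of columns was identical. About 3 reads tell a gene from 0, a limit for counting error alone, because PCR copies were not marked.

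Values below 1.86, the highest zero-read value, were set to it, and genes with a mean deposited log2 RPM of at least 0 were tested in limma 3.58.1 (R 4.3.3; lmFit, eBayes with trend) over the 4 groups in one model, 8 groups of litters in one model, or the 15 HET2 and HOM embryos with litter as covariate, with Benjamini-Hochberg adjustment over all genes at 0.05. The main text of the paper states no test of differential expression for these embryos. The script was tested on simulated data. Correlations were tested by 100000 permutations, for Cdkn1a within group and litter. Exon lengths and overlaps are from GENCODE (GRCm38), with all exons of a gene merged.

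The members and lists were chosen with earlier results of these data known. All 10 members are named. From each list (p53 regulators, other targets, inhibitors of cyclin-dependent kinases, p21 partners, BCL-2 family and apoptosome, Gadd45 family, and markers of two-cell embryo, cumulus and granulosa, oviduct and blood cells) counts and at most the 3 largest called differences are named, and the 5 genes most like Cdkn1a. Alternatives covered the floor, the filter, scaling, voom with library totals, array weights, litter as random effect, litter means, the replicate block, robust variances, depth, and leaving out litters or embryos. After seeing the data, leaving out single embryos of small litters and WT embryos with more than 10 Ovgp1 reads was added.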

Additional observations from a re-analysis of the deposited data

How the results depend on the processing

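The count of the 9 members other than Cdkn1a passing was 0 in HET1 against WT and 1 under quantile normalization (Mdm4, beside 4.95% of all genes). Cdkn1a itself lay under the threshold there (limma adjusted p = 0.0251), in 12 settings of the main fit and its 19 alternatives. It is a description, since the WT embryos entered its choice, and nothing is read from it. In HOM against WT the count over all 10 members, with Cdkn1a as a description, was 0. It became 1 (Cdkn1a) on the deposited values, with genes of a mean log2 RPM of at least 3 and with voom (0.0731%, 0.101% and 0.0548% of all genes), and was 0 to 1 when a litter was left out. Between WT litters 0 became 1 with re-centred embryos (Mdm2, 3.43%) and 2 with voom (5.5%), and 0 to 1 when an embryo was left out. Between HET1 litters 0 became 2 with the filter at 3 (Trp53 and Bax, of the 7 members that passed this filter, beside 35.5% of all genes), 1 with quantile normalization (Mdm4, at -0.49 in place of 0.26, beside 16.4%) and 1 with depth as a covariate (Trp53, beside 18.2%). Between HOM litters 1 (Mdm4) became 0 with re-centred embryos, quantile normalization, embryos under 500000 reads left out and depth as a covariate, and 0 when any first-litter embryo was left out. The counts of HET2 against WT, HET1 against HET2 and HOM against HET2 kept 0 under every alternative run. The cause of these changes was not tested, beyond the smaller number of genes or embryos in the filtered settings. With the litter number as a replicate block no member other than Cdkn1a passed in the 4 comparisons it could be fitted to (count 0 in each), and Cdkn1a stood 2.18 higher in HOM and 1.50 in HET1 than in WT. The numbers do not pair litters: deviations of same-numbered litters correlated at 0.45 (WT and HET1), -0.44 (WT and HOM) and -0.76 (HET1 and HOM) over 6919 genes. On the deposited values the median of all genes moved to 0.61 in HET1 and 0.49 in HOM against WT, and Cdkn1a stood 1.64 and 2.29 higher. Over all genes, 759 were called in HET1 against WT, 0 with the litter as a random effect, with litter means or with depth as a covariate, 6 without the second HET1 litter, 90 without the WT embryos rich in Ovgp1, 174 without embryos under 500000 reads, 289 without the first WT litter, 2350 without the first HET1 litter, 2520 with voom and 4054 on the deposited values. Without the first HET2 and HOM litter 1 HET2 embryo is left, which is then assumed to vary like the other groups. Genes with fewer than about 3 reads an embryo, Bbc3 above all, are limited by depth.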
